A study of Mus musculus with 15 samples.

Results

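The G1 part of the cell cycle was followed through 10 genes in mouse epiblast-like cells (EpiLCs) in which ERK signalling was switched on for hours. The genes are Ccnd1, Ccnd2, Ccnd3, Cdk4, Cdk6, Cdk2, Ccne1, Ccne2, Cdkn1b and Rb1. They were taken by name, each as 1 Ensembl identifier among the 52636 rows of the raw count table, and all 10 passed the filter on low counts. RNA was measured in 15 samples of the CRAFR26 embryonic stem cell line, which carries a c-RAF construct activated by 4-hydroxytamoxifen (4OHT). Cells were differentiated for 48 h in N2B27 medium with bFGF (12 ng/ml), Activin A (20 ng/ml) and the tankyrase inhibitor XAV939 (1 µM). All groups, controls included, received the FGF receptor inhibitor PD17 (250 nM). The 0h group had PD17 for 2 h and no 4OHT (n = 3), and the 2h and 4h groups then had 4OHT (250 nM) for 2 h and 4 h (n = 4 each). No group had those extra hours without 4OHT, so 4OHT and the added time in culture cannot be told apart. The rev group had 4OHT for 4 h and then a MEK inhibitor for 2 h (n = 4), so that the inhibitor and the 2 h of extra culture cannot be told apart. Samples came from 2 clones, clone 4 and clone 8, with 2 samples of each per group except for 1 sample of clone 4 at 0h. Libraries are named by group, clone and sample number (4h clone4_1). Nothing in the labels says that samples of 1 clone came from separate cultures, so p-values measure the spread between these samples, which may be technical.

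Cyclins D1, D2 and D3 bind CDK4 and CDK6 and start the phosphorylation of the retinoblastoma protein, encoded by Rb1. Cyclins E1 and E2 then bind CDK2, further phosphorylation releases E2F factors, and E2F target genes prepare DNA replication. The protein p27, encoded by Cdkn1b, inhibits CDK2 complexes. In many somatic cells ERK raises Ccnd1 transcription, while naive embryonic stem cells are known for a short G1 phase and high cyclin E. Transcript levels do not show kinase activity, which also depends on protein turnover and phosphorylation.

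Sequence windows at RefSeq gene starts (GRCm38.p6) were available for Ccnd3, Cdk4, Cdk6, Cdk2, Ccne1 and Cdkn1b. The sequences of Cdk4, Cdk6 and Ccne1 are shown as examples. The level of Cdk4 overlapped in all groups, while Cdk6 and Ccne1 changed. Ccnd3 also changed and Cdk2 also overlapped. The windows of Ccnd3, Cdk2 and Cdkn1b are not shown and held none of the letters searched. Each printed sequence runs 5′ to 3′ on the gene's strand and stops at the first exon annotated within its window. The Cdk6 window lies inside the GENCODE gene, whose earliest transcript starts at 3341485, so its printed bases are intronic in that transcript. Capitals mark the E-box CACGTG, the letters bound by MYC and related factors.
Cdk4, chr10:127063285-127063533, plus strand: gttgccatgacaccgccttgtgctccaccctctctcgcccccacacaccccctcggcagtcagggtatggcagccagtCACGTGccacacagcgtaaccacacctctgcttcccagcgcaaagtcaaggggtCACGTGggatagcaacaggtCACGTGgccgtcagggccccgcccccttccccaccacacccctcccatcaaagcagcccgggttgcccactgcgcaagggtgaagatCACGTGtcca
Cdk6, chr5:3343643-3343731, plus strand: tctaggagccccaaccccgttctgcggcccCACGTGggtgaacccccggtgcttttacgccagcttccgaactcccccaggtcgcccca
Ccne1, chr7:38107535-38107740, minus strand: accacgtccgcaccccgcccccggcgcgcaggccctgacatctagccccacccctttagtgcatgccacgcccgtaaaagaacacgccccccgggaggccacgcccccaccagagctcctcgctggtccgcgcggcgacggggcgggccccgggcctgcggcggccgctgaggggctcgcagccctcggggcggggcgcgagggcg
The Cdk4 window held 4 E-boxes, which began 172, 118, 98 and 11 bases before the RefSeq start, and the Cdk6 window held 1, at 220 bases. An E-box lay in 6.02% of all 32851 RefSeq windows of the same length (1978 windows), and 4 or more lay in 7 of them (0.0213%). The letters TTTGGCGC, TTTCGCGC and GGCGGGAA (E2F), TGACTCA (AP-1), TGACGTCA (CRE) and CCGGAAGT (ETS), searched on both strands, were in none of the 7 windows of these genes. They were in 0.417%, 0.256%, 1.86%, 4.46%, 1.55% and 2.88% of all windows. No motif searched overlaps another, and a match of letters is not a measured binding site.

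Total counts were between 8667880 and 13004556 in the 0h, 2h and rev libraries and between 1552022 and 6658950 in the 4h libraries. The share of mitochondrial genes was 7.21% to 12.4% at 4h and 2.67% to 6.98% elsewhere. Spry4, a feedback inhibitor induced by ERK, had a log2 fold change of 6.51 at 2h against 0h and of -2.26 in rev against 4h, and Dusp6, an ERK phosphatase, had 5.37 and -1.44. Both genes were still called higher in rev than at 0h (median log2 fold change 3.14), and both were called lower at 4h than at 2h (median -0.95). All 6 EpiLC markers were detected. Their summed level was 1160 to 1399 CPM (depth-scaled read counts, with TMM factors for library composition) at 0h and 681 to 761 at 4h, where 4 were called lower and 2 higher. At 4h, 5 of 6 naive stem cell markers were called higher (sums of 45.2 to 209.7 against 24.7 to 29.0 CPM at 0h), as were 2 of 2 neural markers (37.9 to 50.5 against 2.38 to 4.85). Of the mesendoderm, trophoblast, primitive endoderm and feeder markers that passed the filter, 1 of 3, 1 of 1, 0 of 1 and 0 of 2 were called higher, with sums at 4h of 5.69 to 11.4, 4.89 to 5.46, 2.26 to 4.94 and 0.377 to 6.11 CPM. Their sums at 0h were 2.79 to 3.35, 1.21 to 2.00, 2.27 to 2.79 and 3.14 to 9.12 CPM. Of the 2 feeder markers, 1 was called lower at 4h than at 0h. No marker was at 0 in every library. In rev, 2 of 2 feeder markers were called higher than at 4h (sums of 6.23 to 15.4 CPM) and 1 of 2 higher than at 0h. In rev, 2 of 2 neural and 2 of 3 mesendoderm markers were also called higher than at 0h (6.95 to 10.1 and 6.74 to 11.3 CPM). The EpiLC sum in rev was 949 to 1051 CPM and the naive sum 24.4 to 29.5. Depth and mitochondrial share moved with the 4h group and markers with 4h and rev, and their part in the results below was not tested. In bulk RNA, fewer cells of a type and less RNA per cell cannot be told apart.

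Levels of different genes are compared per kilobase of annotated exon. At 0h, Cdk4 stood highest with 43.0 ± 5.78 CPM per kb (SD, n = 3), followed by Ccne1 with 22.2 ± 4.49 and Ccnd1 with 16.0 ± 0.941. Cdkn1b (5.10 ± 1.81), Cdk2 (4.87 ± 0.305) and Ccne2 (3.03 ± 0.105) formed the middle of the order. Rb1 (2.11 ± 0.869), Ccnd3 (1.85 ± 0.0378), Cdk6 (1.22 ± 0.159) and Ccnd2 (1.19 ± 0.690) were lowest. Neighbours in this order overlapped in their library values for Cdkn1b and Cdk2, for Rb1 and Ccnd3, and for Cdk6 and Ccnd2, and the other neighbours did not overlap. Among cyclins D and their kinases, Ccnd1 and Cdk4 were therefore the most abundant transcripts before induction.

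A gene was called when its adjusted p, from the quasi-likelihood test of edgeR with Benjamini-Hochberg adjustment over 13451 genes, was under 0.05. At 2h against 0h, 2 of the 10 genes were lower (Ccnd1 and Cdk6) and none higher, where 2.46% of all genes were lower and 3.98% higher. Without an adjustment, 4 of the 10 had a p under 0.05 at 2h, a count for which no share of all genes is given here. At 4h against 0h, Ccnd2, Ccnd3 and Rb1 were higher and Ccnd1, Cdk6 and Ccne1 lower, against a background of 20.5% of genes higher and 18.9% lower. From 2h to 4h, Ccnd2 and Ccnd3 were higher and Cdk6, Ccne1 and Ccne2 lower (background 19.7% and 19.2%). In rev against 4h, Ccne1 was higher and Ccnd1 and Ccnd3 were lower (background 15.1% and 15.6%). In rev against 0h, Ccnd1, Ccnd3 and Cdk6 were lower and none of the 10 higher (background 4.66% and 6.49%). With no adjustment, the same number, 3 of 10, had a p under 0.05 in that comparison, again with no share of all genes to set beside it. The median log2 fold change of the 10 genes was -0.05 at 4h against 0h, beside 0.03 over all genes, and -0.09 in rev against 4h, beside 0.02. These comparisons share groups, so a high value at 4h enters both 4h against 0h and rev against 4h. When libraries were scaled by total count in place of TMM, the median of all genes moved to -0.73 at 4h against 0h and to 0.45 in rev against 4h. With that scaling 1 of the 10 genes was called higher and 7 lower at 4h, and 2 higher and 1 lower in rev against 4h. Of all 13451 genes, 6697 were called at 4h and 3148 in rev against 4h with that scaling.

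**Figure D1:**
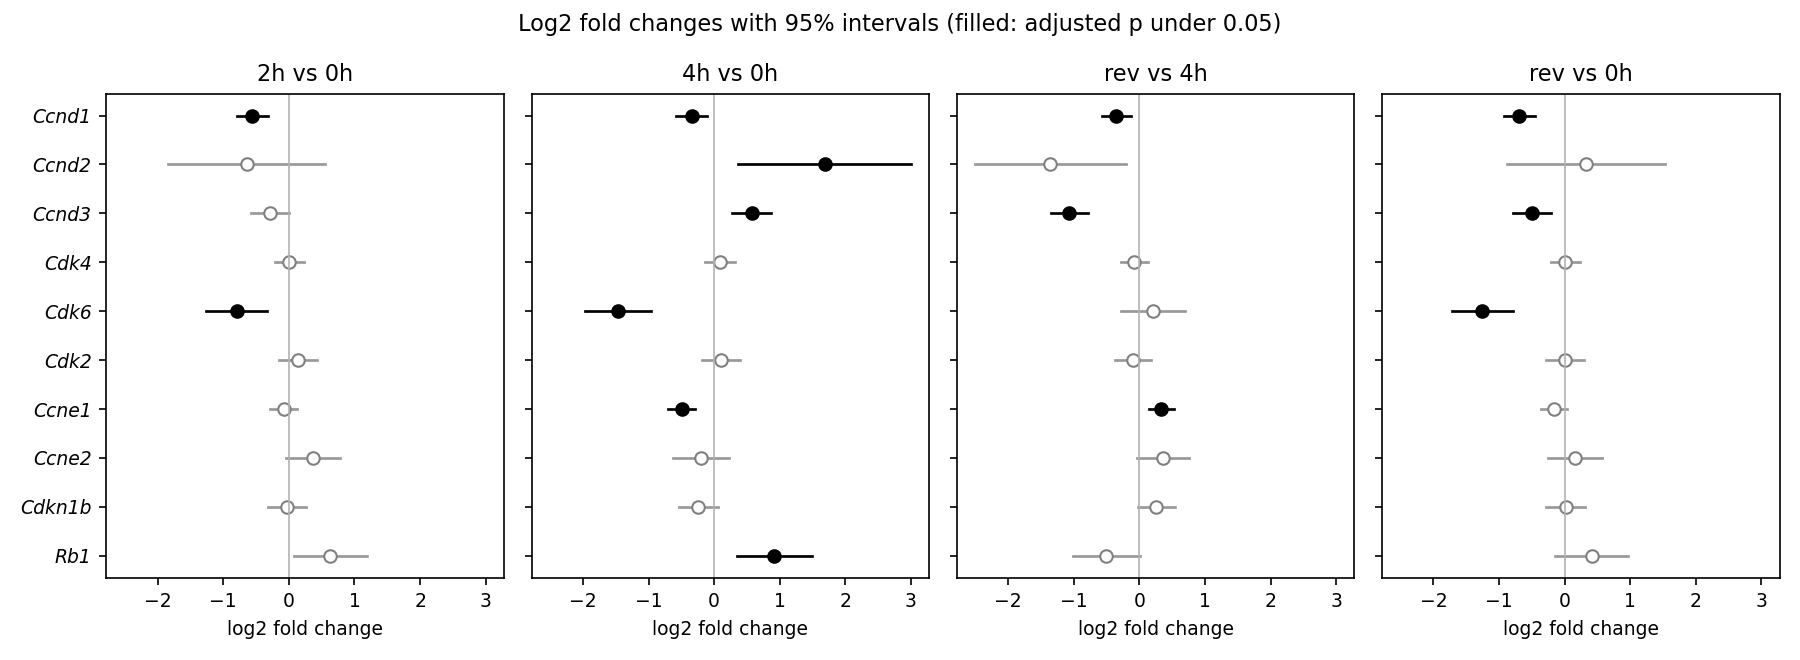
Log2 fold changes (x axis) of the 10 genes (rows) in 4 comparisons (panels), with bars for 95% intervals and filled points for adjusted p under 0.05. Ccnd1 and Cdk6 lie left of 0 in 2h, 4h and rev against 0h, Ccnd3 lies right of 0 at 4h and left of it in rev, and Cdk4 and Cdk2 lie near 0 in all panels.

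Ccnd1, the cyclin D gene best known as an ERK-responsive gene, fell in all 3 groups that had received 4OHT when both clones were fitted together. Values are given with clone 4 first, which has 1 library at 0h and 2 elsewhere, and then the 2 libraries of clone 8. The 0h libraries held 79.8, 75.2 and 71.0 CPM of Ccnd1 and the 2h libraries 51.4, 45.1, 49.3 and 56.1. Those of 4h held 50.1, 55.0, 64.2 and 65.2 CPM and those of rev 45.0, 35.8, 47.8 and 55.9. Every library of the later groups was below every 0h library, while 2h, 4h and rev overlapped one another. The log2 fold change against 0h was -0.55 (SE 0.113, edgeR adjusted p = 0.004) at 2h, -0.34 (SE 0.115, adjusted p = 0.0214) at 4h and -0.69 (SE 0.113, adjusted p = 0.000332) in rev. From 2h to 4h it was 0.21 (adjusted p = 0.12), which was not called, and in rev against 4h it was -0.35 (adjusted p = 0.0165). The calls at 2h and 4h ended without the only 0h library of clone 4, clone4_1. Without it the change was -0.40 at 2h (adjusted p = 0.114) and -0.20 at 4h (adjusted p = 0.255), and without 4h clone4_1 it was -0.30 at 4h (adjusted p = 0.0531). Without rev clone4_2 the change from 4h to rev was -0.24 (adjusted p = 0.107), and with total count scaling it was 0.06. That call also ended with no filter (adjusted p = 0.121), without the clone term (0.0507) and with libraries thinned to the smallest (-0.19, 0.343), and the call at 2h ended with total count scaling (0.162). In rev against 0h Ccnd1 stayed called without any single library and under every other setting. Within clone 8 the change against 0h was not called at 2h (-0.47, edgeR adjusted p = 0.0772) or at 4h (-0.18, 0.362). It was called there in rev (-0.49, 0.0397). Within clone 4, against its single 0h library, the changes were -0.73 at 2h, -0.60 at 4h and -0.98 in rev. Ccnd1 (chr7:144929931-144939925, minus strand, mm10) shares 1100 bases of exon with LTO1 on the opposite strand. The strand of counting is not given, so their reads cannot be told apart, and LTO1 was between 2.26 and 5.90 CPM with no call (log2 fold change 0.25 at 4h).

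Ccnd2, which encodes cyclin D2, was the least abundant cyclin D gene at 0h per kilobase. Its level was 3.78, 13.9 and 15.9 CPM at 0h and 1.36, 3.98, 11.2 and 9.21 at 2h. It was 33.6, 31.6, 17.1 and 20.4 CPM at 4h and 7.22, 7.64, 17.5 and 15.7 in rev. All 4h libraries were above all 0h and 2h libraries, and the clone 4 libraries were the lowest at 0h, 2h and rev and the highest at 4h. The log2 fold change was 1.69 (SE 0.595, edgeR adjusted p = 0.0444) at 4h against 0h and 2.33 (SE 0.544, adjusted p = 0.00627) at 4h against 2h. From 4h to rev it was -1.35 (adjusted p = 0.0735), which was not called, and in rev against 0h it was 0.33 (adjusted p = 0.746). The call at 4h against 0h ended when any of 12 of the 15 libraries was left out, 5 of them in the compared groups and 7 in 2h (clone4_2, clone8_1, clone8_2) and rev (all 4). For the compared groups its adjusted p was 0.2 without 0h clone4_1 (log2 fold change 1.26), 0.0842 without 0h clone8_1, 0.0665 without 0h clone8_2, 0.0741 without 4h clone4_1 and 0.0916 without 4h clone4_2. It also ended with the sample label as a block (adjusted p = 0.0843), with no filter (0.124), without the clone term (0.184) and with only the compared groups (0.196). The call at 4h against 2h ended with only the compared groups (0.0577). A call from 4h to rev appeared without 4h clone8_1 (-1.75, adjusted p = 0.0195) or 4h clone8_2 (-1.69, adjusted p = 0.038). It also appeared with the DESeq2 test (-1.40, adjusted p = 0.0266) and with total count scaling (-0.98, adjusted p = 0.0098).

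Ccnd3, which encodes cyclin D3, rose at 4h and fell in rev. Its level was 16.0, 16.6 and 16.1 CPM at 0h and 14.9, 11.6, 12.6 and 13.6 at 2h. It was 22.0, 20.0, 29.4 and 24.5 CPM at 4h and 12.5, 10.8, 12.3 and 10.1 in rev. The 4h libraries were above all others, and the rev libraries were below all 0h libraries. The log2 fold change was -0.29 (adjusted p = 0.234, not called) at 2h against 0h and 0.57 (SE 0.144, edgeR adjusted p = 0.00335) at 4h against 0h. It was -1.07 (SE 0.135, adjusted p = 3.94e-06) in rev against 4h and -0.50 (adjusted p = 0.0259) in rev against 0h. Within the clones, the change at 4h against 0h was called in clone 8 (0.72, adjusted p = 0.00553). In clone 4, against its single 0h library, it was 0.38. With total count scaling the change at 4h against 0h was -0.16, which was 0.56 above the median of all genes under that scaling. The same scaling gave -0.66 in rev against 4h (adjusted p = 0.078), and thinning gave 0.55 at 4h against 0h (0.128). The call in rev against 0h ended without 0h clone4_1 (adjusted p = 0.142), 0h clone8_1 (0.0702), rev clone4_2 (0.0629) or rev clone8_2 (0.116), with total count scaling (0.079) and with thinning (0.291). Ccnd3 (chr17:47505051-47599691, plus strand, mm10) shares 361 bases of exon with Bysl on the opposite strand, and an annotated processed pseudogene, Ccnd3-ps, may take or give reads.

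**Figure D2:**
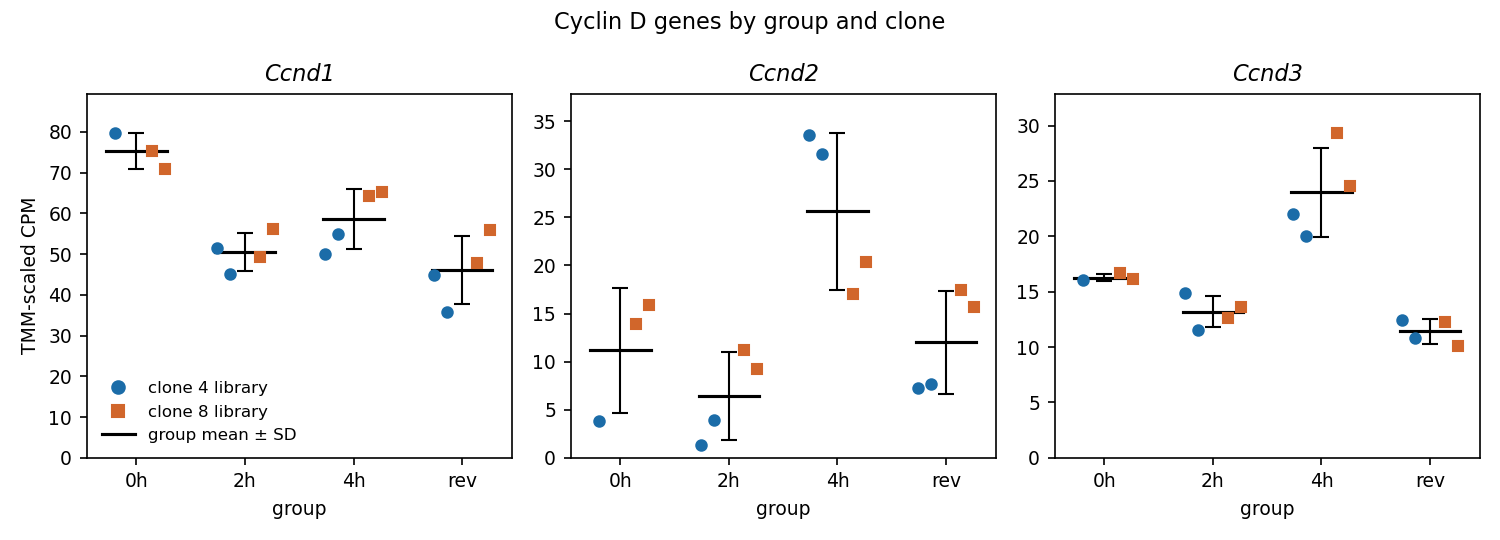
Level (y axis, TMM-scaled CPM) of Ccnd1, Ccnd2 and Ccnd3 by group (x axis), with 1 point per library coloured by clone and bars for the group mean ± SD. Ccnd1 was highest at 0h, Ccnd3 highest at 4h, and the clone 4 points of Ccnd2 run from 3.78 CPM at 0h to above 31 CPM at 4h.

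Because a ratio of counts within a library does not depend on how libraries are scaled, the cyclin D genes were also compared within each library. Per 100 counts of Ccnd1, the libraries of 0h held 20.1 to 22.7 counts of Ccnd3, those of 2h 24.2 to 28.9, those of 4h 36.3 to 45.7 and those of rev 18.0 to 30.3. The 4h libraries lay above all others, and the 2h libraries above all 0h libraries. Ccnd2 had 4.73 to 22.4 counts per 100 of Ccnd1 at 0h, 2.65 to 22.7 at 2h, 26.6 to 67.1 at 4h and 16.0 to 36.6 in rev, so that 4h and rev overlapped. Of the 3 genes' summed level per kilobase, Ccnd1 made up 84.0% ± 3.87 (SD, n = 3) at 0h, 83.2% ± 2.51 (n = 4) at 2h, 69.3% ± 4.65 (n = 4) at 4h and 79.2% ± 2.56 (n = 4) in rev. The Ccnd1 share at 4h, 63.6% to 73.6%, lay below that of all other libraries. The summed level of the 3 genes was 19.0 ± 0.393 CPM per kb for 0h, 12.9 ± 1.29 for 2h, 17.9 ± 1.06 for 4h and 12.4 ± 2.18 for rev. At 4h the lower Ccnd1 level thus stood beside higher Ccnd2 and Ccnd3 levels under TMM scaling. Their sum was between 16.7 and 18.8 CPM per kb against 18.6 to 19.3 at 0h. Unlike the ratios and shares, this sum depends on the scaling. With total count scaling the log2 fold changes at 4h against 0h were -1.09 for Ccnd1, 1.02 for Ccnd2 and -0.16 for Ccnd3. The Ccnd2 change was also unequal between clones, 3.10 in clone 4 against its single 0h library and 0.33, not called, in clone 8. A ratio shows that 2 genes changed unequally and not which of them changed.

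**Figure D3:**
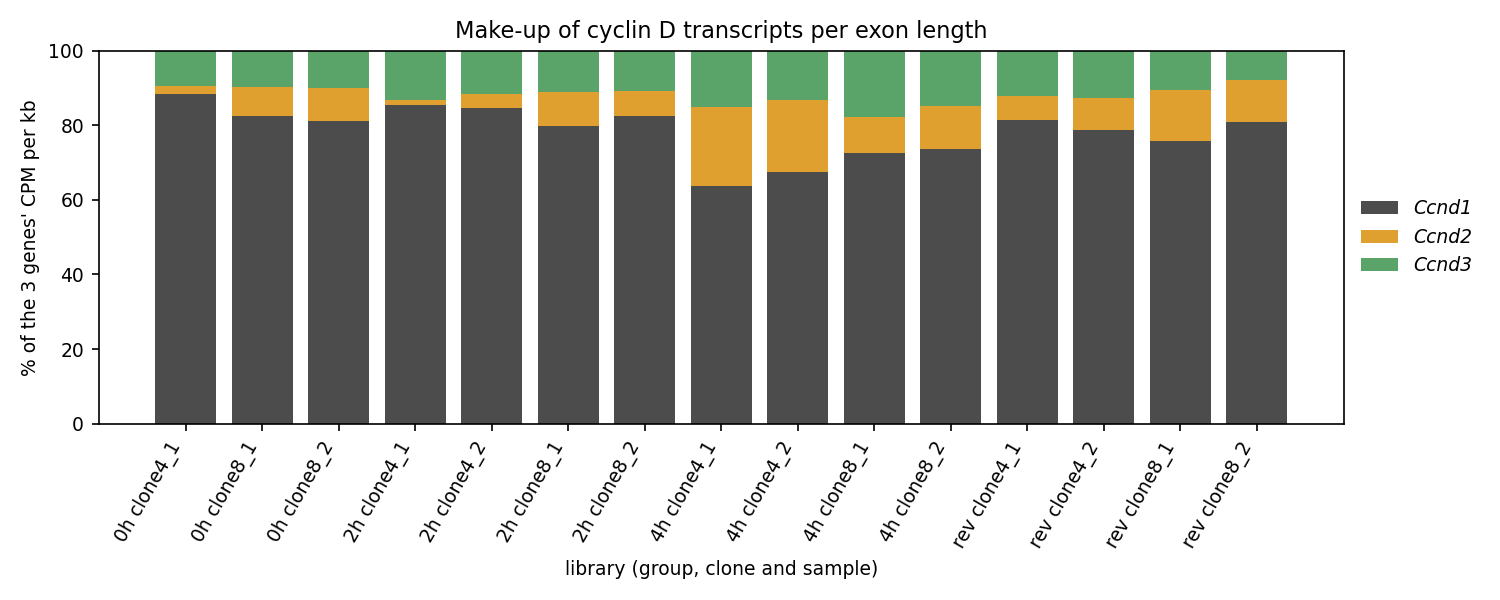
Share (y axis, percent of the 3 genes' CPM per kb) of Ccnd1, Ccnd2 and Ccnd3 in each of the 15 libraries (x axis). The Ccnd1 share is lowest in the 4 libraries of 4h, at 63.6% to 73.6%, and Ccnd2 takes 21.4% and 19.4% in the clone 4 libraries of 4h.

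Of the kinases, only Cdk6 was called in any group comparison, and it fell at 2h and 4h and stayed low in rev. Its level was 14.6, 17.4 and 19.0 CPM at 0h and 8.63, 8.58, 10.2 and 8.62 at 2h. It was 1.83, 3.46, 8.42 and 10.2 CPM at 4h and 5.32, 4.23, 8.60 and 9.34 in rev. No library of 2h, 4h or rev reached the lowest 0h library, and at 4h and rev the clone 4 libraries were below those of clone 8. The log2 fold change against 0h was -0.79 (SE 0.224, edgeR adjusted p = 0.0358) at 2h, -1.46 (SE 0.243, adjusted p = 8.18e-05) at 4h and -1.26 (SE 0.225, adjusted p = 0.000866) in rev. From 4h to rev it was 0.21 with a 95% interval of -0.29 to 0.70 (adjusted p = 0.547). The calls at 4h and in rev against 0h held without any single library and under every other setting. The call at 2h ended without 0h clone4_1 (-0.60, adjusted p = 0.329), 0h clone8_2 (0.0547), 2h clone8_1 (0.148) or 2h clone8_2 (0.0858), with the block on the sample label (0.0935), without the clone term (0.156) and with thinning (0.178). Library 4h clone4_1 held only 3 counts of Cdk6, and 4h clone4_2 held 14. From 2h to 4h the change was -0.67 (adjusted p = 0.0288). That call ended without 2h clone4_1 (0.0625), 2h clone4_2 (0.0603), 4h clone4_1 (0.089) or 4h clone4_2 (0.116). It also ended without the clone term (0.248), with only the compared groups (0.0649) and with the older quasi-likelihood method (0.061). Without the 20 most abundant and mitochondrial genes its adjusted p was 0.0774. Per 100 counts of Cdk4, Cdk6 had 9.08 to 15.02 counts at 0h, 5.48 to 8.39 at 2h, 1.46 to 6.65 at 4h and 2.93 to 6.56 in rev, with no overlap between 0h and the other groups.

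Cdk4, the partner of cyclins D that was most abundant here, was between 121.7 and 168.9 CPM in all 15 libraries and overlapped in all groups. Its log2 fold change at 4h against 0h was 0.09 with a 95% interval of -0.14 to 0.31, and in rev against 4h it was -0.08 with an interval of -0.29 to 0.13. Cdk2, the partner of cyclins E, was between 22.6 and 38.5 CPM, with changes of 0.10 (-0.19 to 0.39) and -0.10 (-0.37 to 0.17) in the same comparisons. Neither gene passed the test in any comparison. These intervals are for both clones together, and within the clones the values at 4h against 0h had opposite signs. For Cdk4 they were -0.24 in clone 4 and 0.32 in clone 8 (adjusted p = 0.226 and 0.0512), and for Cdk2 -0.30 and 0.39 (0.241 and 0.0641). The differences, clone 8 minus clone 4, were 0.56 for Cdk4 (SE 0.186, adjusted p = 0.108) and 0.69 for Cdk2 (SE 0.237, adjusted p = 0.127) and were not called. With total count scaling both were called lower at 4h (-0.65 each), which was 0.07 above the median of all genes for each of them. Cdk4 shares 641 bases of exon with Tspan31 on the opposite strand, which was at 11.4 to 16.7 CPM.

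Ccne1, which encodes cyclin E1, was lower at 4h than at 0h and 2h and rose in rev. Its level was 72.9, 52.6 and 51.8 CPM at 0h and 69.7, 69.2, 44.7 and 51.6 at 2h. It was 45.8, 50.4, 40.3 and 37.7 CPM at 4h and 57.8, 64.9, 51.6 and 46.2 in rev. All 4h libraries lay below all 0h libraries, and within each clone all 4h libraries lay below those of every other group. The log2 fold change was -0.08 (adjusted p = 0.692) at 2h and -0.50 (SE 0.0979, edgeR adjusted p = 0.00041) at 4h against 0h. It was 0.34 (SE 0.0912, adjusted p = 0.00742) in rev against 4h and -0.16 (95% interval -0.36 to 0.04) in rev against 0h. All 8 libraries of 4h and rev could be left out in turn with the call in rev against 4h kept, and it ended without the clone term in the model (adjusted p = 0.127) and with thinning (0.0632). Without the clone term the call at 4h against 0h ended too (0.051). Ccne2, which encodes cyclin E2, was 10.4 to 11.0 CPM at 0h, 9.64 to 18.3 at 2h, 7.33 to 10.9 at 4h and 9.39 to 14.7 in rev, with overlap between all groups. In the main fit it was called only at 4h against 2h, where it was lower (-0.56, SE 0.192, adjusted p = 0.0237). That call ended without 2h clone4_2 (adjusted p = 0.0824), 2h clone8_1 (0.073), 4h clone4_1 (0.0743) or 4h clone8_2 (0.0626), and with thinning (0.0582). It also ended with the older quasi-likelihood method (0.0527) and without the 20 most abundant and mitochondrial genes (0.0658). With total count scaling Ccne2 was called lower at 4h against 0h (-0.96, adjusted p = 0.00914) and higher in rev against 4h (0.80, 0.0419). The medians of all genes were then -0.73 and 0.45. With thinning it was also called higher in rev against 4h (0.86, adjusted p = 0.029). Ccne2 shares 609 bases of exon with Ints8 on the opposite strand, which was at 35.6 to 47.8 CPM, above Ccne2 itself. Per 100 counts of Ccne1, Ccne2 had 14.3 to 21.3 counts at 0h and 16.0 to 27.1 at 4h.

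Cdkn1b, which encodes the inhibitor p27, separated the clones and not the groups in the main fit. In clone 4 the 0h library held 13.8 CPM, the 2h libraries 10.7 and 11.8, the 4h libraries 7.33 and 10.9 and the rev libraries 12.3 and 11.3. In clone 8 the 0h libraries held 29.1 and 26.7 CPM, those of 2h 35.4 and 26.4, those of 4h 25.3 and 29.0 and those of rev 29.7 and 32.7. Every clone 8 library was above every clone 4 library, with a log2 fold change of 1.37 (SE 0.101, edgeR adjusted p = 5.74e-09) for clone 8 against clone 4. No group comparison called it in the main fit, and the change at 4h against 0h was -0.24 with a 95% interval of -0.54 to 0.06. With total count scaling Cdkn1b was called lower at 4h against 0h (-1.03, adjusted p = 0.00264) and 2h (-0.80, 0.0186). The medians of all genes were then -0.73 and -0.57. With thinning it was called lower at 4h against 2h (-0.54, adjusted p = 0.0429) and higher in rev against 4h (0.65, 0.019). Clone 8 also had higher Cdk6 (0.68, adjusted p = 0.00584) and lower Ccne1 (-0.41, adjusted p = 0.000158). Both calls ended with total count scaling (adjusted p = 0.0517 and 0.213), and that of Cdk6 with thinning (0.15). Ccnd2 was called higher in clone 8 with total count scaling (0.93, adjusted p = 0.00286) and with the DESeq2 test (0.99, adjusted p = 0.046). These are 2 genes higher and 1 lower of the 10, beside 10.4% and 8.11% of all genes. Leaving out 4h clone8_1 added Ccnd2 (1.24, adjusted p = 0.0387) and Rb1 (0.50, adjusted p = 0.0473) to the genes higher in clone 8. Leaving out 4h clone4_2 added Rb1 (0.54, adjusted p = 0.0293), and leaving out 0h clone4_1 added Ccnd1 (0.26, adjusted p = 0.0289). Rb1 was also called higher in clone 8 with no filter (0.42, adjusted p = 0.00326).

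Rb1, which encodes the pocket protein that D cyclin kinases phosphorylate, was 6.64, 15.5 and 15.9 CPM at 0h and 12.4, 19.3, 22.9 and 17.7 at 2h. It was 15.3, 26.4, 18.0 and 27.1 CPM at 4h and 11.4, 16.6, 13.5 and 20.5 in rev. The groups overlapped, with the clone 4 library of 0h far below the other libraries of 0h. The log2 fold change at 2h against 0h was 0.63 (edgeR adjusted p = 0.175), which was not called. With no filter it was called (0.62, adjusted p = 0.00407), and with thinning it was -0.0048. At 2h it was 1.25 in clone 4, against its single 0h library, and 0.37 in clone 8. The log2 fold change at 4h against 0h was 0.92 (SE 0.270, edgeR adjusted p = 0.0133), and without 0h clone4_1 it was 0.59 (adjusted p = 0.0914). The call also ended with total count scaling (0.18, adjusted p = 0.625), without the clone term (0.0596) and with thinning (0.61, adjusted p = 0.0663). From 2h to 4h the change was 0.29 (adjusted p = 0.368), and with thinning it was called (0.62, adjusted p = 0.0455). From 4h to rev the change was -0.50 (adjusted p = 0.131), and without 4h clone8_1 it was -0.67 (adjusted p = 0.038). It was also called with no filter (-0.42, adjusted p = 0.0417) and with the block on the sample label (-0.47, adjusted p = 0.0347). Rb1 shares 488 bases of exon with Rcbtb2 and 408 with Lpar6, both on the opposite strand. Rcbtb2 fell at 4h (-0.55, adjusted p = 0.0065), and Lpar6 rose at 4h (1.98, adjusted p = 0.00106), with a level of 0.756 to 7.41 CPM over the 15 libraries. Their part in the Rb1 values was not tested.

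**Figure D4:**
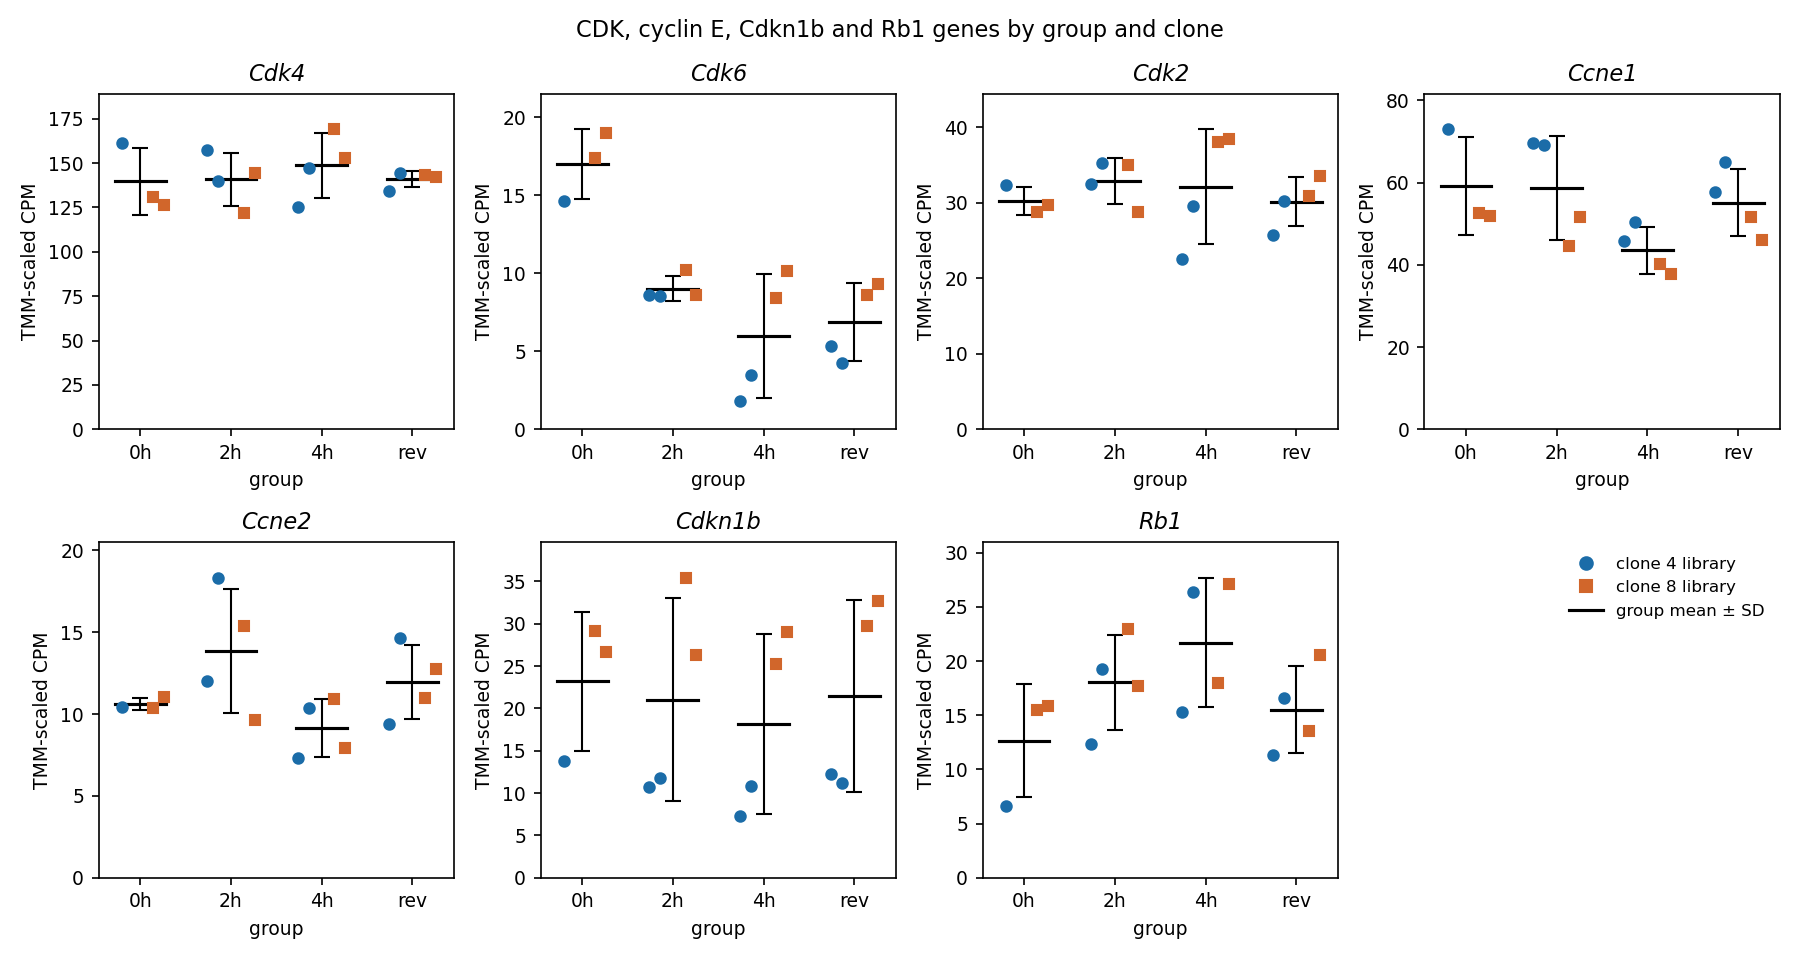
Level (y axis, TMM-scaled CPM) of the other 7 genes by group (x axis), with 1 point per library coloured by clone and bars for the group mean ± SD. Cdk6 is highest at 0h, Ccne1 lowest at 4h within each clone, Cdkn1b higher in all clone 8 libraries, and Cdk4 and Cdk2 overlap in all groups.

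Whether the clones differed in their course over the groups was tested jointly over 3 interaction coefficients. Clone 4 has 1 library at 0h, so every value of clone 4 against 0h rests on that library, and its error assumes that it varies like the other clone and group cells. Ccnd2 (edgeR adjusted p = 0.000775) and Cdk6 (adjusted p = 0.0384) were called, 2 of the 10 genes beside 3.18% of all genes. For Ccnd2 the change at 4h against 0h was 3.10 (SE 0.392, adjusted p = 1.04e-05) in clone 4 and 0.33 (SE 0.277, adjusted p = 0.409) in clone 8. The difference, clone 8 minus clone 4, was -2.77 (SE 0.461, adjusted p = 0.000887; 3.87% of all genes were called in this test). For 4h against 2h it was -2.70 (SE 0.408, adjusted p = 0.000533; 3.14% of all genes), and within clone 8 Ccnd2 was still higher at 4h than at 2h by 0.87 (adjusted p = 0.0253). Ccnd2 changed from 4h to rev by -2.13 (adjusted p = 5.39e-05) in clone 4 and by -0.17 (adjusted p = 0.705) in clone 8, a difference of 1.96 (adjusted p = 0.00777; 2.8% of all genes). Ccnd2 was called in the joint test in all 21 alternatives that could be fitted, with an adjusted p of at most 0.0259. The naive marker sum at 4h was 45.2 and 48.4 CPM in clone 4 and 209.7 and 193.8 in clone 8, and its part in the clone differences was not tested.

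Cdk6 changed by -2.35 (SE 0.283) in clone 4 and -0.98 (SE 0.218) in clone 8 at 4h against 0h, a difference of 1.37 (SE 0.363, adjusted p = 0.0369). From 2h to 4h it changed by -1.58 in clone 4 and by -0.02 in clone 8, a difference of 1.56 (SE 0.340, adjusted p = 0.0129). The joint call of Cdk6 was kept in 5 of 21 alternatives. Of the 14 libraries that could be left out, it was kept without 2h clone8_1, 4h clone4_2 or rev clone4_1, and ended without each of the other 11, with an adjusted p of up to 0.143. Within clones, 2 of the 10 genes were higher and 3 lower at 4h against its single 0h library in clone 4 (background 13.7% and 13.4%), and 1 higher and 2 lower in clone 8 (14.1% and 12.4%). Cdk6 and Ccne1 were lower in both clones. From 4h to rev, 2 were lower in clone 4 and 1 in clone 8, none higher (background 8.39% and 11.9% lower, 8.57% and 11.5% higher). Ccnd3 was lower in both, by -0.84 in clone 4 (adjusted p = 0.00371) and -1.28 in clone 8 (adjusted p = 4.2e-05). For Rb1 the change at 4h was 1.68 in clone 4, against the single 0h library with 6.64 CPM, and 0.51 in clone 8, and the difference between the clones was not called (adjusted p = 0.181).

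Genes around these 10 were taken from lists of the same pathway. Of 18 classical E2F targets of S phase entry, 7 fell and none rose at 4h against 0h, and 5 rose and none fell in rev against 4h. The strongest falls by adjusted p were those of Rrm2 (ribonucleotide reductase, -0.56), Orc1 (origin recognition, -0.50) and Tk1 (thymidine kinase, -0.53). In rev, the rises included those of Pcna (the replication clamp, 0.43) and Rrm2 (0.49). The list's median was -0.22 at 4h against 0h and 0.17 in rev against 4h, beside 0.03 and 0.02 over all genes. Without 0h clone4_1 only 2 of the 18 were lower at 4h, with thinning 3, without the clone term 4, and with total count scaling 17. Without 4h clone4_1 only 2 of the 18 were higher in rev, without 4h clone4_2 and without rev clone4_2, clone8_1 or clone8_2 it was 3 each, and with thinning it was also 3. The median was 0.13 at 2h against 0h and -0.04 in rev against 0h, and from 2h to 4h 9 of the 18 fell.

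Of 12 genes of the Rb-E2F module, 3 fell at 4h against 0h, namely E2f6 (-0.56, adjusted p = 0.007), E2f7 (-0.45, adjusted p = 0.0117) and Tfdp1, the E2F dimer partner (-0.27, adjusted p = 0.0397). In rev against 4h, E2f6 (0.51) and Tfdp1 (0.28) rose and E2f2 (-0.98) and E2f4 (-0.38) fell. E2f6 and E2f7 are known as repressors within the family. Of 5 other CDK inhibitor genes tested, Cdkn1c, which encodes p57, rose at 4h (1.14, SE 0.155, adjusted p = 7.55e-06), and Cdkn1a, which encodes p21, fell (-0.62, adjusted p = 0.0149). Without 0h clone4_1, 1 of the 12 genes of the Rb-E2F module was lower at 4h against 0h, with total count scaling 7 were, and with thinning none of the 11 tested was. From 4h to rev the module had no higher and 1 lower gene without rev clone8_1, and 2 higher and none lower with total count scaling. Without each of the other libraries of 4h and rev it had 1 or 2 higher and 1 to 4 lower. The Cdkn1a call ended without 4h clone8_1 and with thinning, where 3 of the inhibitor genes were tested.

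Of 17 genes for activation and turnover of the G1 cyclins and p27, 2 rose and 5 fell at 4h against 0h. Ambra1, which targets D cyclins for degradation, rose by 0.42 (adjusted p = 0.00761), and Ccnh, a subunit of the CDK-activating kinase, by 0.60 (adjusted p = 0.00804). Skp1a, a core subunit of SCF ubiquitin ligases, changed by -0.71, Cks1b, which helps the SKP2 ligase bind p27, by -0.62, and Cdc37, a chaperone partner for CDK4, by -0.84. In rev against 4h Skp1a, Cks1b and Cdc37 rose, by 0.80, 0.52 and 0.57, and Fzr1, an activator of the anaphase promoting complex, fell (-0.49, adjusted p = 0.0217). Without 0h clone4_1 none of the 17 was higher and 3 were lower at 4h, and with total count scaling none was higher and 10 were lower. The fall in rev ended without 4h clone8_2, rev clone4_2 or rev clone8_2, with total count scaling, without the clone term and with thinning. Of 4 later cyclin and CDK genes, Ccnb2 (cyclin B2) rose at 4h (0.50, adjusted p = 0.0046) and fell in rev (-0.44), where Ccnf also fell (-0.54) and Ccnb1 rose (0.29). In rev no gene of this list was higher without 4h clone4_1, 4h clone4_2, rev clone4_2 or rev clone8_2, and with thinning none was higher at 4h. In the main fit, the shares of these lists are to be read against the backgrounds above. These were 20.5% higher and 18.9% lower at 4h and 15.1% and 15.6% in rev. Other settings have other backgrounds. At 4h against 0h, 5300 of 13451 genes were called in the main fit and 6697 with total count scaling. Without 0h clone4_1 it was 3847 of 13808, and with thinning 2437 of 8686. In rev against 4h, 4140 of 13451 were called in the main fit, 3148 with total count scaling and 1734 of 8686 with thinning.

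The genes with the most similar course to Ccnd1 over the 15 libraries, by Pearson r of TMM-scaled log2 CPM, were Adarb1 (r = 0.961), Mapk4 (r = 0.932) and Dapk1 (r = 0.925). For Ccnd2 they were Tmed8 (r = 0.932), Sox11 (r = 0.908) and Tspan14 (r = 0.897), and for Ccne1 they were Psmd7 (r = 0.938), H2afz (r = 0.938) and Gstcd (r = 0.927). Within the 10 genes, Ccnd2 and Ccne1 ran most opposite (r = -0.80), and Cdk6 and Cdkn1b (r = 0.69) and Ccnd1 and Cdk6 (r = 0.63) ran most alike. These are descriptions over 15 libraries that share groups, clones and depth.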

How the data were processed

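Total RNA (1 µg) of 15 samples was depleted of ribosomal RNA and sequenced, per the labels' protocols. The authors deposited whole-number raw counts per gene in 1 table. Reads were handled with bcl2fastq 2.19.1 and STAR 2.5.3a on mm10, per the submitters' processing notes, and the counting tool, its annotation and its use of strand are not given in the sources used here. Names, exon lengths and overlaps came from GENCODE M21, which matched 52489 of 52636 identifiers. Another sample of 0h, discarded by the submitters in quality control, was not used here.

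Counts were filtered with edgeR 4.0.16 in R 4.3.3 (filterByExpr, minimum count 10, minimum total 15), which left 13451 genes, and scaled with TMM. The quasi-likelihood F test was fitted over all 15 samples with group and clone as terms, and p-values were adjusted by Benjamini-Hochberg over 13451 genes. Intervals are 95%. The clone by group test used a mean for each of 8 clone and group cells. CPM values used the TMM factors. The script was tested on simulated data. The smallest library held 1552022 counts, in which 3 counts equal 1.83 CPM, a floor that covers counting error only since reads carried no molecular identifiers.

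Described here are all 10 genes, and from the pathway lists up to 3 called genes per list and direction with the lowest adjusted p, of which 1 is not reported here. The 10 genes and the lists were chosen with earlier results of these data known. Alternatives were total count and DESeq2 (1.42.0) scaling, the DESeq2 test, other filters and models, thinning to the smallest library, and leaving out each library. The older quasi-likelihood method and the list counts under all settings were added after seeing the data.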

Additional observations from a re-analysis of the deposited data

Results flagged for a closer look

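Among the 30 sets of 4 libraries of 1 group that were checked, Cdk6 at 2h had 1 library standing apart from the others, clone8_1 with 10.2 CPM against 8.58 to 8.63 CPM in the other 3. Chance marks about 1 in 20 such sets.

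The clones differed in their course over the groups for Ccnd2 (edgeR adjusted p = 0.000775) and Cdk6 (adjusted p = 0.0384) in the joint test of 3 coefficients. The differences in log2 fold change, clone 8 minus clone 4, were -2.77 for Ccnd2 at 4h against 0h, -2.70 at 4h against 2h and 1.96 in rev against 4h. For Cdk6 they were 1.37 at 4h against 0h and 1.56 at 4h against 2h. Clone 4 had a single library at 0h, and its 4h libraries held 3 and 14 counts of Cdk6. The joint test could not be fitted without that 0h library.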

How the results depend on the processing

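Of the 10 genes, 2 were called at 2h against 0h. With total count scaling, without the clone term, with the replicate block or with libraries thinned to the smallest it was 1. Of all 13451 genes, 867 were called in the main fit, 266 with total count scaling, 427 without the clone term and 653 with the block. With thinning it was 252 of 8686. At 4h against 0h 6 of the 10 were called, and 3 without the clone term, beside 5300 and 4390 of all genes. At 4h against 2h 5 of the 10 were called. With the older quasi-likelihood method, with only the compared groups, or without the 20 most abundant and mitochondrial genes it was 3. Over all genes it was 5237, 4957, 3962 of 11680 and 4855 of 13287, in the same order. In rev against 4h 3 of the 10 were called, and 1 without the clone term, beside 4140 and 3137 of all genes. For the clone by group test 2 of the 10 were called. With total count scaling, the DESeq2 test, the older method, without the abundant genes, or with thinning it was 1. Over all genes it was 428, 113, 370, 368, 359 of 13287 and 164 of 8686, in the same order. Leaving out 1 library gave 0 to 2 calls among the 10 at 2h, 3 to 6 at 4h against 0h and 3 to 5 at 4h against 2h. It gave 2 to 5 in rev against 4h, 2 to 3 in rev against 0h, 3 to 5 for the clones and 1 to 2 for the clone by group test. Over all genes, leaving out 1 library of the compared groups gave 308 to 1077 calls at 2h and 3847 to 5186 at 4h against 0h. For 4h against 2h it gave 4502 to 4981, for rev against 4h 3285 to 3972 and for rev against 0h 511 to 1299. For the clones it gave 2029 to 2427, and for the clone by group test 237 to 489. The cause of these changes was not tested.

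Changes of sign with total count scaling were, at 2h against 0h, Cdk4 -0.20 and Cdk2 -0.081. At 4h against 0h they were Ccnd3 -0.16, Cdk4 -0.65 and Cdk2 -0.65, and at 4h against 2h Ccnd1 -0.33, Cdk4 -0.46 and Rb1 -0.28. In rev against 4h they were Ccnd1 0.064, Cdk4 0.32 and Cdk2 0.33, and in rev against 0h Cdk4 -0.33, Cdk2 -0.33, Ccne2 -0.16 and Cdkn1b -0.32. The other changes of sign were of values near 0. With DESeq2 size factors they were Cdk4 -0.00099 at 2h, and in rev against 0h Cdk4 -0.014, Cdk2 -0.017 and Cdkn1b -0.0080. With no filter they were Cdk4 -0.0036 at 2h, -0.035 at 4h against 0h, -0.032 at 4h against 2h, 0.0090 in rev against 4h and -0.026 in rev against 0h, Cdk2 -0.016 at 4h and -0.030 in rev against 0h, and Cdkn1b -0.020 in rev against 0h. With the DESeq2 test they were Cdk4 -0.0045 at 2h, and in rev against 0h Cdk4 -0.018, Cdk2 -0.027 and Cdkn1b -0.0021. With only the compared groups they were Cdk4 -0.026 at 2h, and in rev against 0h Cdk4 -0.021, Cdk2 -0.024 and Cdkn1b -0.019. Without the abundant genes they were Cdk4 -0.0057 at 2h, and in rev against 0h Cdk4 -0.010 and Cdk2 -0.021. With thinning they were Cdk4 -0.063, Cdkn1b 0.099 and Rb1 -0.0048 at 2h, Cdk4 -0.033 at 4h against 0h, Cdk2 0.11 at 4h against 2h, and Cdk4 -0.043 and Cdk2 -0.021 in rev against 0h. In rev against 0h Cdk2 was -0.0026 with the older method and -0.0078 without the clone term, and Cdkn1b was -0.11 without that term.

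Leaving out 1 library moved across 0 Cdk4 at 2h (-0.067 to 0.15), at 4h against 0h (-0.021 to 0.22), in rev against 0h (-0.072 to 0.15) and between clones (-0.079 to 0.039). It did so for Cdkn1b at 2h (-0.13 to 0.15) and in rev against 0h (-0.093 to 0.19), and for Cdk2 at 4h against 2h (-0.13 to 0.089) and in rev against 0h (-0.058 to 0.14). It also did so for Ccnd2 in rev against 0h (-0.030 to 0.51) and Ccne2 between clones (-0.13 to 0.023).

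With the sample label as a replicate block, 1, 5, 5, 4 and 3 of the 10 genes were called at 2h, 4h against 0h, 4h against 2h, rev against 4h and rev against 0h, and Cdk2 in rev against 0h was -0.021. Of all 13451 genes, 653, 4902, 5182, 4130 and 1104 were called with the block, in the same order. Samples of the same label correlated in their deviations with a median r of 0.198 (0.0465 to 0.436 over 21 pairs), beside 0.189 for other labels of the same clone, and 8 of 15 libraries correlated best with their own label. The numbers were therefore taken as names only.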
